A study of Homo sapiens with 6 samples.

Results

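The miR-200 family is a set of related microRNAs (miRNAs), short RNAs that pair with messenger RNAs and lower the amount of protein made from them. Its members were taken by name from the table of miRNA read counts. Of the 471 rows of the table, 6 were members: hsa-miR-200a-3p, hsa-miR-200b-3p, hsa-miR-200b-5p, hsa-miR-200c-3p, hsa-miR-141-3p and hsa-miR-429. The prefix for human is left off where they are described. Small RNA was sequenced from extracellular vesicles (EVs), membrane-bound particles released into the medium, of spheroids of Cal27, an established cell line from an oral squamous cell carcinoma. Spheroids were grown in Matrigel, a basement membrane gel, at 3 mg/mL (soft, EV_soft) or 12 mg/mL (stiff, EV_stiff), and EVs were taken from the medium of day 14, with 3 libraries in each group. The question was whether the stiffness of the matrix alters the RNA carried by the EVs. Both groups came from the same unmodified cell line and differed in the gel concentration. The medium held serum depleted of EVs, 1 Matrigel batch served the replicate experiments, and replicates were separate isolations from separate culture repeats. Because these are bulk samples, a change in the number of vesicles of one kind and a change in the RNA per vesicle cannot be told apart.

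The miR-200 family is best known as a guardian of the epithelial state. Its members repress ZEB1 and ZEB2, transcription factors that silence E-cadherin and drive epithelial-mesenchymal transition, in which cells lose their contacts and become motile. ZEB1 and ZEB2 in turn repress the genes of the family, so that each side holds the other down. The family is made from hairpin precursors in a pair of genomic clusters, and its members fall into a pair of groups by their seed, the stretch near the 5′ end that selects target messages.

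The mature sequences are shown because the members differ by so few bases that they bear on what was counted. All 6 were found in RefSeq (GRCh38). They are written 5′ to 3′ with the seed, bases 2 to 8, in capitals.
miR-200b-3p: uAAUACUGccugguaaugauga
miR-200c-3p: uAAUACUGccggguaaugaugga
miR-429: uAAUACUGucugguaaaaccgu
miR-200a-3p: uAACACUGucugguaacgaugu
miR-141-3p: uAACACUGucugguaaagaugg
miR-200b-5p: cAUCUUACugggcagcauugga
The first 3 share the seed AAUACUG and the next 2 the seed AACACUG, and among the 2370 mature miRNAs of RefSeq no other has either. The seeds differ at 1 base, written U4C from miR-200b-3p to miR-141-3p, with positions counted from 1 at the 5′ end. The last sequence is the other arm of the miR-200b hairpin and has the seed AUCUUAC, which in RefSeq is shared with 1 other miRNA, miR-200a-5p, the other arm of the miR-200a hairpin. Over the first 22 bases miR-200b-3p and miR-200c-3p differ at 2 positions (U11G and A22G), and miR-200c-3p is 1 base longer. The pair miR-200a-3p and miR-141-3p also differs at 2 positions (C17A and U22G). A read with an error or an altered end at these bases could be counted for the wrong member, so the division of reads within each pair carries that uncertainty.

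The clusters lie on different chromosomes of GRCh38. On chromosome 1 the hairpins of miR-200b (1167104 to 1167198), miR-200a (1167863 to 1167952) and miR-429 (1169005 to 1169087) fall within 1984 bases of the plus strand. RefSeq places them inside the long non-coding RNA gene MIR200BHG, from 1162877 to 1170338, while GENCODE 44 has no other gene over them. On chromosome 12 the hairpins of miR-200c (6963699 to 6963766) and miR-141 (6964097 to 6964191) fall within 493 bases, also on the plus strand. They lie in an intron of the long non-coding RNA gene MIR200CHG. The labels name the build hg38, which is the same assembly.

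As background, the starts of both host genes are shown. Each runs from 250 bases before to 50 bases after the annotated start, with every CACCTG in capitals. CACCTG, searched on both strands (CAGGTG on the other), is an E-box, the kind of sequence that ZEB1 and ZEB2 bind.
MIR200BHG, chr1:1162627-1162926, plus strand: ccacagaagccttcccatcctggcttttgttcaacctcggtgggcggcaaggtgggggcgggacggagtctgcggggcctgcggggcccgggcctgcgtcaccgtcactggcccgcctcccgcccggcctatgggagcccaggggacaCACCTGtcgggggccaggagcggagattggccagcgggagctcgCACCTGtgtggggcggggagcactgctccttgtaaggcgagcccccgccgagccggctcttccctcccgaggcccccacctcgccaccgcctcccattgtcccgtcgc
MIR200CHG, chr12:6962995-6963294, plus strand: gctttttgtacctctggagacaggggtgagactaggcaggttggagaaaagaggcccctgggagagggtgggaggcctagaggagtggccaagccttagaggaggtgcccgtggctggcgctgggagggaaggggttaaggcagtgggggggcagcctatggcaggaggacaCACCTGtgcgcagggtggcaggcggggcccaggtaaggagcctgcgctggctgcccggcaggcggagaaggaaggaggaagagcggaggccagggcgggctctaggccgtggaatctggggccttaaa
The MIR200BHG window held the motif 2 times, starting 102 and 58 bases before the gene start, and the MIR200CHG window held it 1 time, 78 bases before the start. Of all 35116 windows of this length in the RefSeq table, 20.6% held at least 1 copy and 3.49% at least 2. A match describes the letters and is not a measured binding site. The libraries used here hold miRNAs of EVs, and ZEB1, ZEB2, the host gene transcripts and the miRNAs of the cells were not measured in them. A link between the motif and the EV levels was therefore not tested.

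The miRNA reads per library numbered from 39211 to 66345 in EV_soft and from 28688 to 30685 in EV_stiff. Counts were scaled by edgeR's TMM method to CPM, which sets the reads of a miRNA against the effective size of its library, and a count of 3, the limit that a count of 0 allows, stood for 44.8 to 108 CPM. After the filter on low counts 105 miRNAs were tested, among them 5 of the 6 members. Fold changes are log2 values of EV_stiff over EV_soft from edgeR's quasi-likelihood test, with p adjusted over all 105. A miRNA was called where the adjusted p did not exceed 0.05 and the log2 fold change lay beyond 0.58 in either direction, which are the thresholds of the study. Called miRNAs were 19, or 18.1% of those tested, with 8 lower (7.62%) and 11 higher (10.5%) in EV_stiff. Of 9 listed miRNAs of squamous or other epithelium, miR-205-5p, a miRNA of squamous epithelium, ranked 9 of the 105 by mean CPM. The others tested ranked from 34 (miR-224-5p) to 89 (miR-31-5p). The 2 found but not tested had at most 7 reads in any library.

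Every member of the family had fewer reads and a lower CPM in each EV_stiff library than in any EV_soft library. Of all miRNAs tested, this held for 64.8% in reads, as the EV_soft libraries were deeper, and for 24.8% in CPM. The thresholds were passed by 3 members, miR-200c-3p, miR-200b-3p and miR-200a-3p, where 7.62% of all miRNAs tested were called lower. From the fit, miR-200c-3p was 2.15-fold, miR-200a-3p 2.17-fold and miR-200b-3p 1.65-fold higher in EV_soft. The values of miR-429 and miR-200b-5p did not pass the test, and miR-141-3p was too low to be tested.

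**Figure D1:**
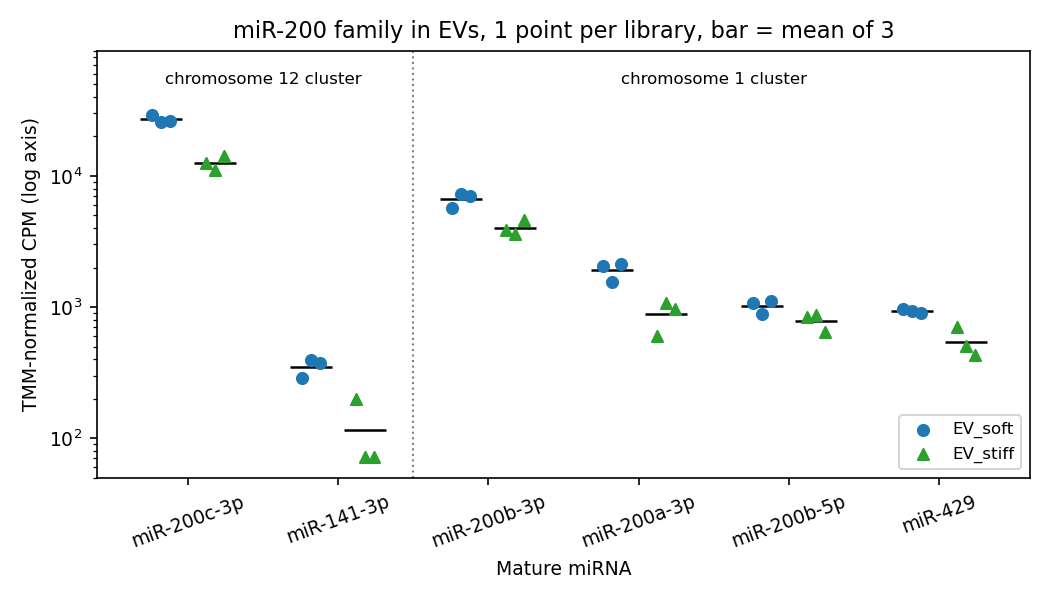
TMM-normalized CPM (log axis) of the 6 members in 3 EV_soft libraries (circles) and 3 EV_stiff libraries (triangles), with a bar at each mean. For each member the EV_stiff points lie below the EV_soft points, from 27027 and 12586 CPM for miR-200c-3p down to 351 and 115 CPM for miR-141-3p.

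In the chromosome 12 cluster, miR-200c-3p was the most abundant member and ranked 15 of the 105 tested. It had 1323, 1050 and 1750 reads in EV_soft and 377, 308 and 392 in EV_stiff. The lowest EV_soft library thus held 2.68 times the unscaled reads of the highest EV_stiff library, but the EV_soft libraries were deeper. The nearest levels were 25885 CPM in EV_soft and 14131 CPM in EV_stiff. Its level was 27027 ± 1774 CPM (SD, n = 3) against 12586 ± 1531 CPM (SD, n = 3). The log2 fold change was -1.10, with a 95% interval from -1.35 to -0.85 and an adjusted p of 9.68e-05, the second smallest p of all miRNAs tested.

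Its cluster partner miR-141-3p, made from the neighbouring hairpin, was the scarcest member, with between 0.510 and 1.59 reads for every 100 of miR-200c-3p. It had 13, 16 and 25 reads in EV_soft and 6, 2 and 2 in EV_stiff. No EV_stiff library reached the lowest EV_soft count. In CPM this was 351 ± 57.7 (SD, n = 3) against 115 ± 73.8 (SD, n = 3), and the 2 lowest libraries lay under the limit of 3 counts. Pooled over libraries, 54 reads against 10 gave a rate 3.02 times higher in EV_soft, with an exact 95% interval from 1.52 to 6.65 that covers counting error only. A two-sided exact permutation test of the CPM gave p = 0.1, which is the lowest value open to 3 libraries against 3. In the fit with no filter on low counts it stood at -1.65 on the log2 scale (standard error 0.68, adjusted p = 0.188, with 3.23% of 464 miRNAs called). Without EV_stiff replicate 1, which held its highest EV_stiff count, it passed the filter and was called at -2.26 (adjusted p = 0.0339 in edgeR, 11.2% of 116 called). It also passed the filter, without being called, when EV_soft replicate 1 (-1.70, adjusted p = 0.0742 in edgeR), EV_stiff replicate 2 (-1.32, adjusted p = 0.148) or EV_stiff replicate 3 (-1.32, adjusted p = 0.127) was left out. In each fit that left out a library, miR-141-3p met the filter through its EV_soft counts alone, so the call at -2.26 adds no support.

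In the chromosome 1 cluster, miR-200b-3p was the most abundant member. It had 259, 296 and 467 reads in EV_soft and 116, 100 and 128 in EV_stiff. In unscaled reads, which were raised by the deeper EV_soft libraries, the groups were 2.02-fold apart at their nearest libraries. The nearest levels were 5691 CPM in EV_soft and 4614 CPM in EV_stiff. Its level was 6653 ± 849 CPM (SD, n = 3) in EV_soft and 4024 ± 529 CPM (SD, n = 3) in EV_stiff. The log2 fold change of -0.73 (95% interval -1.07 to -0.38, adjusted p = 0.00742 in edgeR) was past both thresholds.

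Next in abundance was miR-200a-3p, which shares its cluster with miR-200b-3p and its seed with miR-141-3p. Its reads were 93, 63 and 143 in EV_soft and 18, 30 and 27 in EV_stiff. The level went from 1910 ± 313 CPM (SD, n = 3) to 884 ± 252 CPM (SD, n = 3), a log2 fold change of -1.12 (95% interval -1.73 to -0.51, adjusted p = 0.0147 in edgeR). The call rested on EV_soft replicate 3, the deepest library and the one with most reads of this miRNA. Without it the log2 fold change was -1.03 and the adjusted p was 0.0593, in a fit that called 17% of 106 miRNAs.

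The third hairpin of the cluster gives miR-429, which carries the seed of miR-200b-3p. It had 44, 38 and 60 reads in EV_soft and 21, 14 and 12 in EV_stiff. The EV_soft levels were close to each other at 967, 937 and 896 CPM, and the EV_stiff levels spread from 433 to 699 CPM. The log2 fold change was -0.76, close to that of miR-200b-3p, with a wider 95% interval of -1.41 to -0.12. Its adjusted p of 0.0745 (edgeR, unadjusted 0.0246) missed the threshold, which at 12 to 60 reads per library does not show that its level was the same. It was called by edgeR's likelihood ratio test (adjusted p = 0.0469), which called 25.7% of all miRNAs, and with a filter of at least 10 counts in every library (adjusted p = 0.0209), where 25.3% of 87 were called.

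The other arm of the miR-200b hairpin, miR-200b-5p, had the smallest fold change. It had 49, 36 and 74 reads in EV_soft and 25, 24 and 18 in EV_stiff. In CPM the highest EV_stiff library, at 863, lay just under the lowest EV_soft library, at 887. The log2 fold change was -0.39 (95% interval -0.97 to 0.19, adjusted p = 0.29 in edgeR). For every 100 reads of the 3p arm there were 18.9, 12.2 and 15.8 reads of the 5p arm in EV_soft and 21.6, 24.0 and 14.1 in EV_stiff. These ranges overlap, so the balance of the arms did not separate the groups.

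In EV_soft the order of the levels was miR-200c-3p, miR-200b-3p, miR-200a-3p, miR-200b-5p, miR-429 and miR-141-3p. The mature miRNAs are 22 or 23 bases long, so CPM was not divided by length here. How evenly different miRNAs were captured in the libraries was not tested. The libraries of miR-200b-5p (887 to 1105 CPM) and miR-429 (896 to 967 CPM) overlapped, so these neighbours did not differ beyond their spread. In EV_stiff the order of the means was the same, with overlap between miR-200a-3p (599.5 to 1078 CPM) and miR-200b-5p (649 to 863 CPM), and between miR-200b-5p and miR-429.

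Of the 5 members tested, 3 were called lower, where 7.62% of all miRNAs tested were. The median log2 fold change of the 5 was -0.76, against -0.04 over all 105. All 5 had CPM in EV_stiff below every EV_soft library, which held for 24.8% of all miRNAs tested. In unscaled reads the 5 were likewise lower in every EV_stiff library, but so were 64.8% of all miRNAs tested, since the EV_soft libraries were deeper. A gap of at least 2-fold in unscaled reads between the nearest libraries was found for miR-200c-3p, miR-200b-3p and miR-200a-3p among the tested members, and for 8.57% of all miRNAs tested. The family was picked with earlier results of these data known, so these shares describe it and do not test it. With every library given the same size all 5 were called lower, in a fit that called 54.3% of all miRNAs.

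**Figure D2:**
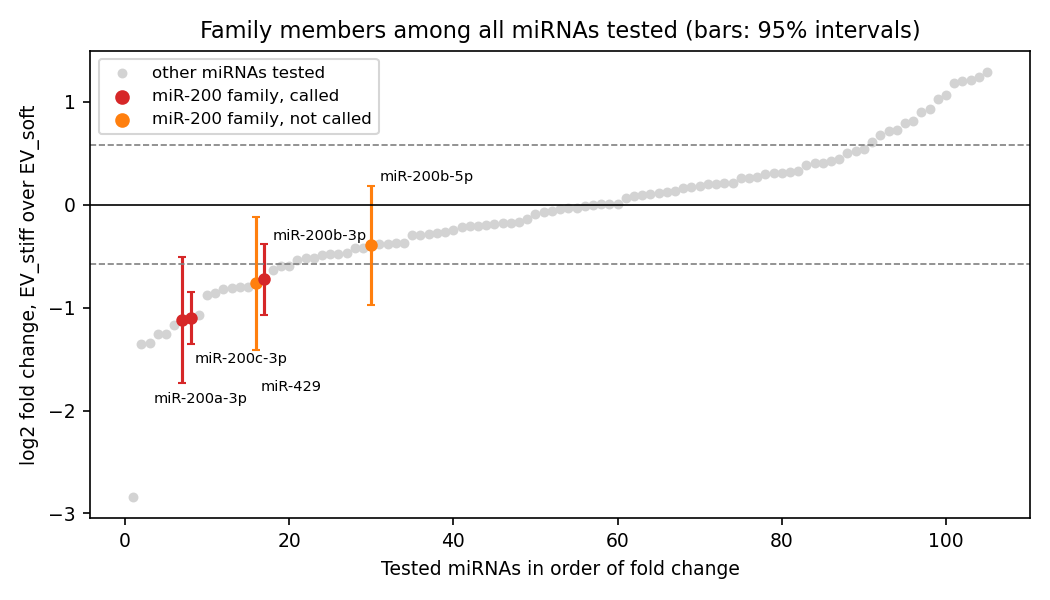
Log2 fold change of EV_stiff over EV_soft for the 105 miRNAs tested, in rising order, with the 5 tested family members in colour and their 95% intervals, and dashed lines at the threshold of 0.58. The members run from -1.12 to -0.39, all on the lower side, and the interval of miR-200b-5p crosses 0.

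Together the 6 members made up 3.88%, 3.82% and 3.80% of the miRNA reads in the EV_soft libraries and 1.83%, 1.67% and 1.95% in the EV_stiff libraries. The share varied little in EV_soft (SD 0.0446, n = 3) and more in EV_stiff (SD 0.142, n = 3), with no overlap, and its mean was 2.11 times higher in EV_soft. Within the family, miR-200c-3p alone held 71.3% ± 2.63 (SD, n = 3) of the reads in EV_soft and 66.4% ± 1.71 (SD, n = 3) in EV_stiff. The share of the family in a library therefore follows this member closely.

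The clusters were compared first by their summed levels. The chromosome 12 pair summed to 27378 ± 1717 CPM (SD, n = 3) in EV_soft and 12701 ± 1532 CPM (SD, n = 3) in EV_stiff, 2.16 times higher in EV_soft. The chromosome 1 members summed to 10520 ± 678 CPM (SD, n = 3) and 6234 ± 377 CPM (SD, n = 3), 1.69 times higher in EV_soft. The chromosome 12 cluster gave 75.0%, 71.1% and 70.5% of the family's reads in EV_soft and 68.0%, 64.9% and 68.0% in EV_stiff. The groups did not overlap in this share, but the 95% Wilson interval of EV_soft replicate 3 (68.7% to 72.2%) overlapped that of EV_stiff replicate 3 (64.1% to 71.7%). The mean share fell by 5.22 percentage points, while the summed level of each cluster was at least 1.69 times higher in EV_soft. No p is given for a sum over chosen members.

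**Figure D3:**
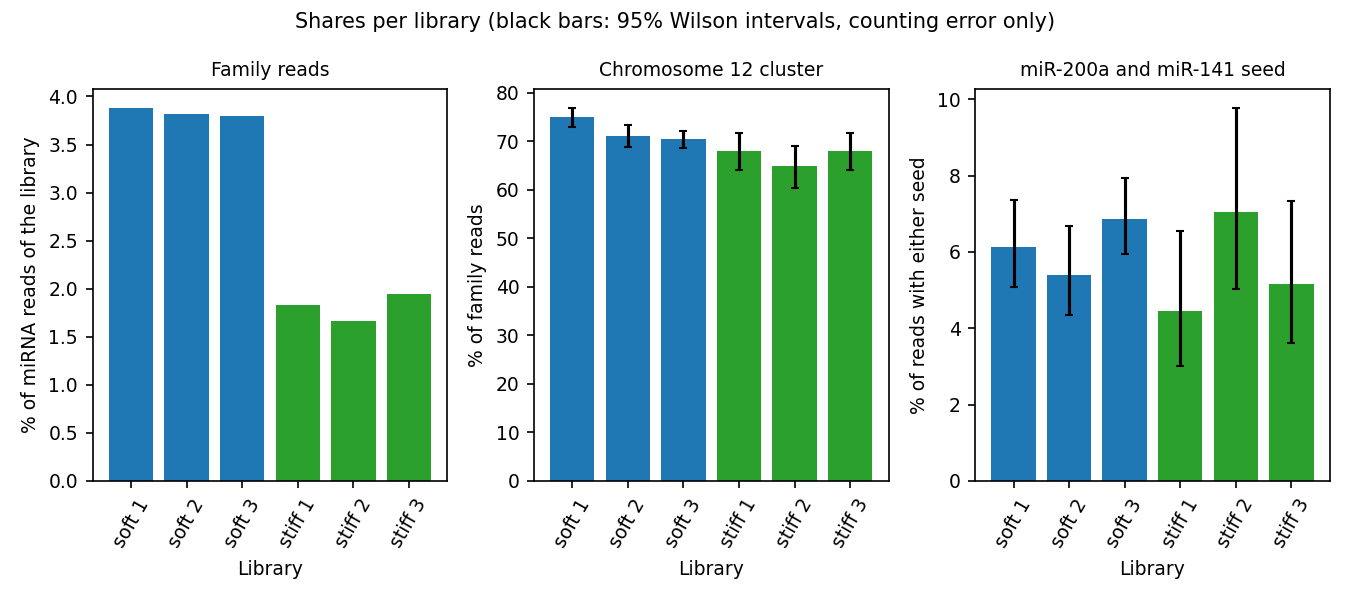
For each library, the family's reads as a percentage of all miRNA reads, the chromosome 12 cluster as a percentage of family reads, and the seed AACACUG (miR-200a-3p and miR-141-3p) as a percentage of reads with either seed, with 95% Wilson intervals on the latter 2. The family's share drops from between 3.80% and 3.88% to between 1.67% and 1.95%, while the seed share overlaps between the groups.

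The seed groups were compared in the same way, with the 3p members and miR-429. The seed AAUACUG (miR-200b-3p, miR-200c-3p and miR-429) summed to 34613 ± 968 CPM (SD, n = 3) in EV_soft and 17155 ± 2006 CPM (SD, n = 3) in EV_stiff, 2.02 times higher in EV_soft. The seed AACACUG (miR-200a-3p and miR-141-3p) summed to 2262 ± 286 CPM (SD, n = 3) and 998 ± 180 CPM (SD, n = 3), 2.27 times higher in EV_soft. Most of the first sum was miR-200c-3p, and without it the sum was 1.66 times higher in EV_soft. Reads with the seed AACACUG were 6.12%, 5.40% and 6.87% of the reads with either seed in EV_soft and 4.46%, 7.05% and 5.17% in EV_stiff. These values overlap, and a difference in the balance of the seeds, in which miR-200c-3p weighs most, was not detectable at this depth. EV_soft and EV_stiff libraries alike held mostly reads of the seed AAUACUG.

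Pairs of members that share a seed, a cluster or both were then compared, since the scaling between libraries cancels in a ratio. Members of a pair also differ at bases outside the seed. For 5 pairs the log2 ratio of reads (0.5 added to each count) was compared between groups with an exact permutation test (two-sided), which here cannot give a p below 0.1, and p was adjusted over the 5. The ratio of miR-200c-3p to miR-200b-3p, with the same seed and different clusters, was 2.35, 1.82 and 1.90 in EV_soft and 1.70, 1.62 and 1.61 in EV_stiff. It was lower in each EV_stiff library, by 0.39 on average (exact p = 0.1, adjusted 0.5). The mean ratio of miR-200a-3p to miR-200b-3p, with the same cluster and different seeds, was 0.40 lower in EV_stiff, with overlap (exact p = 0.2, adjusted 0.5). This difference (EV_stiff minus EV_soft) was -0.17 without EV_stiff replicate 1 and -0.64 without EV_stiff replicate 2. For miR-429 to miR-200b-3p, which share cluster and seed, the means were -2.81 ± 0.23 (SD, n = 3) and -2.86 ± 0.47 (SD, n = 3), with an exact permutation p of 1. The ratios of miR-141-3p to miR-200a-3p and to miR-200c-3p overlapped between the groups (exact p = 0.6 and 0.4, adjusted 0.75 and 0.667), with few reads of miR-141-3p behind them. No pair passed an adjusted p of 0.05, which 3 libraries against 3 could not reach, so a difference between clusters or between seeds was not shown.

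**Figure D4:**
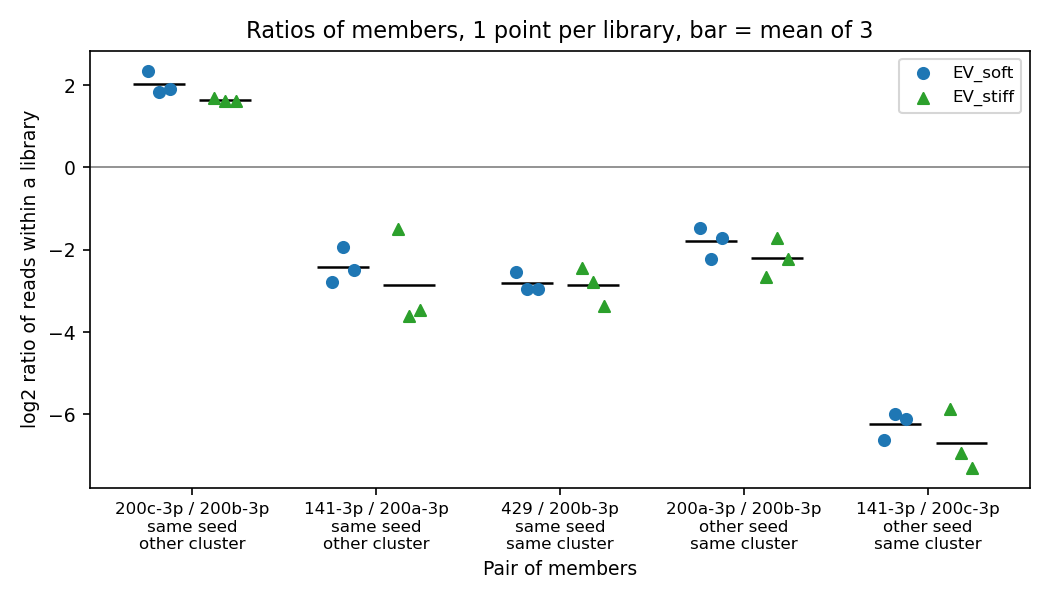
Log2 ratio of reads of 2 members within each library, for 5 pairs, with EV_soft as circles, EV_stiff as triangles and bars at the means. The groups are apart only for miR-200c-3p over miR-200b-3p, at 1.82 to 2.35 against 1.61 to 1.70, and overlap for the other pairs.

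Of a list of 9 other miRNAs of epithelial cells, 6 were tested, and edgeR called 0 of them, with 0 at an unadjusted p under 0.05. Over all 105 miRNAs tested, edgeR called 18.1%, and 42 had an unadjusted p under 0.05. Whether they differed from the family was not tested. DESeq2 and limma-voom also called 0, each with 1 higher at an unadjusted p under 0.05, and edgeR's likelihood ratio test called 0, with 1 higher and 1 lower at an unadjusted p under 0.05. The fit with no filter and the fits without EV_soft replicate 1 or 2 each called 1 higher, and the fit with the same size for every library called 4 lower. Over all miRNAs, the fit with no filter called 3.23% of 464, and that with the same size for every library 54.3% of 105. The fits without EV_soft replicate 1 or 2 called 17% of 106 and 18.3% of 104. Library size alone, no filter, and the fits without EV_soft replicate 3 or EV_stiff replicate 1 each had 1 lower at an unadjusted p under 0.05, which was not called.

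The median log2 fold change of the 6 was 0.09, over members that went both ways. Chosen after their values were seen as the ends of this range, miR-31-5p was at -0.80 (adjusted p = 0.141 in edgeR), as low as miR-429, and miR-203a-3p at 1.21 (adjusted p = 0.127 in edgeR). The most abundant, miR-205-5p, which also represses ZEB1 and ZEB2, was at 29760 ± 3540 CPM (SD, n = 3) in EV_soft and 34299.5 ± 1199 CPM (SD, n = 3) in EV_stiff. The fitted difference was 0.20 on the log2 scale (standard error 0.10, adjusted p = 0.168 in edgeR), and it turned to -0.65 when every library was given the same size. The next, miR-224-5p, changed by -0.03 (standard error 0.16, adjusted p = 0.916), with a sign that varied between scalings. The summed CPM of the list, most of it from miR-205-5p, ran from 35352 to 42671 in EV_soft and from 43944 to 46616 in EV_stiff.

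Of 16 miRNAs linked to mesenchymal cells, stroma or the loss of the epithelial state, 5 were tested. Of these, 1 was called lower in EV_stiff, where 7.62% of all miRNAs tested were. The median log2 fold change was -0.37, over members that went both ways, from -0.86 to 0.55 (adjusted p = 0.139 in edgeR for the highest). The one called was miR-155-5p, a miRNA induced by inflammatory signals and by TGF-β, at -0.86 (standard error 0.22, adjusted p = 0.0179 in edgeR). This call was lost without EV_soft replicate 1 (adjusted p = 0.0523) or EV_stiff replicate 1 (adjusted p = 0.0636). The most abundant were miR-222-3p at -0.37 (adjusted p = 0.0626) and miR-221-3p at -0.18 (adjusted p = 0.427), which are made from 1 cluster and promote proliferation in many carcinomas. Defining miRNAs of fibroblasts were near 0, and the 8 listed miRNAs found but not tested had between 0 and 10 reads in any library. The summed CPM of the mesenchymal list, most of it from miR-222-3p and miR-221-3p, ran from 32320 to 39991 in EV_soft and from 26713 to 30010 in EV_stiff.

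Of 9 miRNAs of blood and serum, 2 were tested, and the called one, miR-122-5p, a liver miRNA abundant in serum, was higher in EV_stiff (log2 fold change 1.03, adjusted p = 0.00295 in edgeR, not called with the same size for every library, at 0.23). Over all miRNAs tested, 10.5% were called higher. The red cell miRNA miR-486-5p changed by 0.10 (standard error 0.68, adjusted p = 0.946), a sign that other fits turned. The 4 others found in the table had at most 8 reads in a library. The summed CPM of the list, most of it from miR-122-5p, was 3224 to 5892 in EV_soft and 6828 to 9560 in EV_stiff. The part of these RNAs in the fall of the miR-200 family was not tested.

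**Figure D5:**
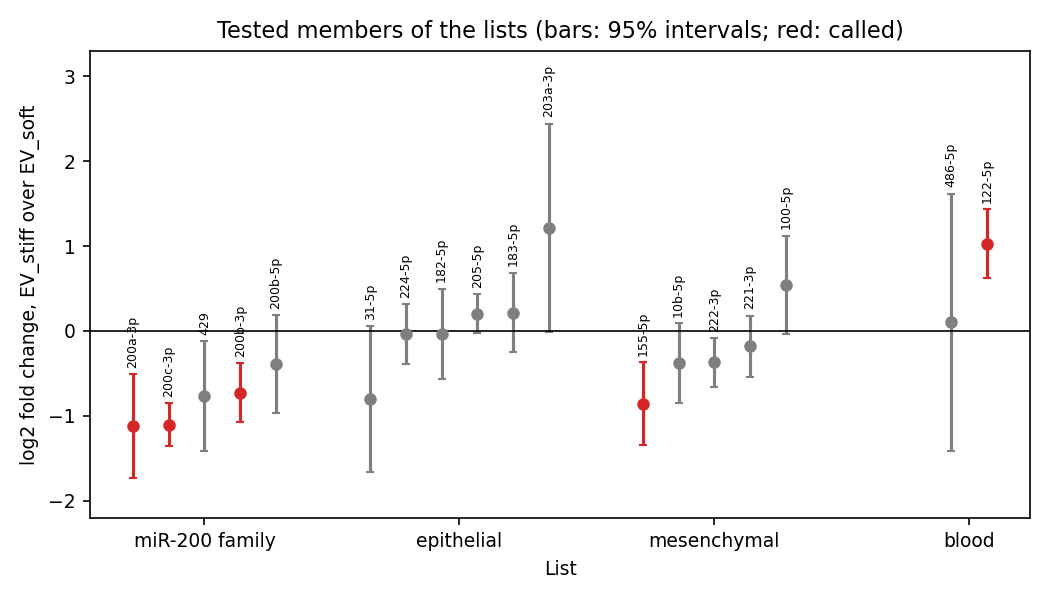
Log2 fold change of EV_stiff over EV_soft with 95% intervals for the tested members of the miR-200 family and of 3 lists, with called miRNAs in red. Of the family 3 are called lower, against 0 of 6 epithelial, 1 of 5 mesenchymal (miR-155-5p) and, higher, 1 of 2 blood miRNAs (miR-122-5p). Over all 105 miRNAs tested, 7.62% are called lower and 10.5% higher.

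The miRNAs whose pattern was most like that of each tested member were picked by Pearson's r of log2 CPM over the 6 libraries, 3 for each member. As the libraries form 2 groups, r here mostly reflects the difference between them and is given as a description. The 15 picks had r between 0.89 and 0.99, covered 13 miRNAs, and included 0 members of the family. As the family gave only 5 of the 105 miRNAs tested, the absence of members among the picks says little. For miR-200c-3p they were miR-146a-5p (log2 fold change -1.36), miR-181a-5p (-1.26) and let-7i-5p (-0.42). For miR-200b-3p they were miR-181a-5p, miR-125a-5p (-1.35) and miR-584-5p (-1.17, adjusted p = 0.0571). The nearest to miR-200a-3p were miR-185-5p (-0.27, not called), miR-155-5p and miR-146a-5p, a miRNA that restrains NF-κB signalling. Those nearest to miR-429 (miR-7-5p, miR-27b-3p and miR-30a-5p) and to miR-200b-5p (miR-222-3p, miR-17-5p and miR-25-3p) had log2 fold changes from -1.08 to -0.24, and 0 of these 6 were called. The share called over all miRNAs tested was 18.1%.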

How the data were processed

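Raw read counts of miRNAs, 1 column per library, were deposited by the authors, who used the exceRpt pipeline for quality control and counted features as defined in RefSeq. The submitters' processing notes name the build hg38. The aligner, any removal of duplicate reads and the rule for reads that match more than 1 miRNA are not given in the sources used here. Groups and replicate numbers came from the titles.

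The edgeR package (4.0.16, in R 4.3.3) was run on the counts with its filterByExpr filter, TMM factors and quasi-likelihood test, without a replicate block. The Benjamini-Hochberg adjustment covered the 105 miRNAs tested. Standard errors were obtained as the absolute log2 fold change over the square root of F, and 95% intervals used the degrees of freedom of that fit. Ratios of members used counts plus 0.5, and permutation tests and Wilson and exact intervals were computed with scipy 1.17.1. Every pair of libraries differed beyond sampling noise (chi-square of at least 3.40 per degree of freedom). PCR copies are not independent molecules, so counting intervals cover counting error only.

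Each library was left out in turn. Other alternatives were DESeq2 1.42.0, limma-voom (limma 3.58.1), the likelihood ratio test of edgeR, other scalings and filters, removal of the most abundant miRNA, and a replicate block. The procedure was tested on simulated data. The members and lists were chosen with earlier results of these data known. Named miRNAs are the members, those called and the 2 most abundant tested of each list, and the 3 most alike to each tested member by Pearson's r of TMM log2 CPM (prior count 2), besides 2 named after their values were seen. Sequences and hairpin positions came from RefSeq on GRCh38 and host genes also from GENCODE 44.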

Additional observations from a re-analysis of the deposited data

How the results depend on the processing

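All 17 alternatives kept the sign of the 5 tested members, and miR-200c-3p and miR-200b-3p were called in each of them. When every library was given the same size, the median of all miRNAs shifted by -0.85 (log2), 57 miRNAs were called, each of them lower in EV_stiff, and 5 members were called, with miR-429 at -1.59 and miR-200b-5p at -1.24. Relative to the median of all miRNAs, the median of the members was then -0.70, against -0.73 with TMM. With edgeR's likelihood ratio test miR-429 was called at -0.76 (adjusted p = 0.0469), and with at least 10 counts in every library at -0.84 (adjusted p = 0.0209), where fewer miRNAs were tested. Over the fits that left out 1 library, 13 to 19 miRNAs and 2 to 4 members were called. The 4 included miR-141-3p without EV_stiff replicate 1, where it met the filter through its EV_soft counts alone. The log2 fold change then ranged from -1.28 to -0.92 for miR-200a-3p, which lost its call without EV_soft replicate 3. Ranges were -0.83 to -0.64 for miR-200b-3p, -1.18 to -1.004 for miR-200c-3p, -1.01 to -0.62 for miR-429 and -0.48 to -0.27 for miR-200b-5p.

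Leaving out 1 library moved the ratio of miR-429 to miR-200b-3p between -0.26 and 0.20 and turned its sign without EV_soft replicate 1 and without EV_stiff replicate 3. That of miR-200c-3p to miR-200b-3p stayed between -0.49 and -0.22, that of miR-200a-3p to miR-200b-3p between -0.64 and -0.17, and those of miR-141-3p to miR-200a-3p and to miR-200c-3p between -1.12 and -0.07 and between -0.88 and -0.17. The difference in the chromosome 12 share ranged from -6.09 to -3.81 percentage points, and was -4.30 without miR-200b-5p. With a replicate block 16 miRNAs and 3 members were called. Whether equal replicate numbers mark paired libraries is not known. The deviations of libraries with equal numbers correlated at -0.13, 0.13 and -0.03, and not every library correlated best with its own number. With 3 libraries per group these values cannot settle it. Among the other named miRNAs, signs turned for miR-205-5p (-0.65 with the same library size), miR-224-5p (0.0168 with DESeq2, 0.0172 with RLE and 0.0217 with upper quartile factors, and -0.15 to 0.0696 with 1 library left out) and miR-486-5p (-0.0896 with limma-voom, -0.0873 with the replicate block, -0.66 with the same library size, and -1.16 to 0.85 with 1 library left out). None of these 3 was called in the main test. The cause was not tested in these cases.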
